A study of Mus musculus with 10 samples.

Results

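Experiment 1 of this study compared the adult brains of male mice that had been exposed to ethanol before and shortly after birth with those of males whose mothers had only water. Its members are the 4 arrays titled as experiment 1, of 10 arrays in the series. They comprise 2 ethanol and 2 control arrays, each hybridised with the pooled RNA of 3 whole brains, 12 mice in all. C57BL/6J females drank 10% ethanol in water or plain water from gestational day 0 until their pups reached postnatal day 10, and the brains of the male offspring were taken at postnatal day 70. No brain was exposed to ethanol by the protocol after that, so the groups differ by a maternal exposure that had ended weeks before collection. Pooling was meant to dilute litter effects, but the litters behind each pool are not given in the labels, and p-values here reflect only how far pools of a group differ. The other 6 arrays of the series, from an independent experiment 2 with 2 brains per pool, are used here to test whether an ethanol difference was unlike that of experiment 1, and in 1 alternative estimate of the spread. Of 35556 probe sets on the array, the 21789 with exactly 1 gene symbol were tested, and they represent 19938 genes.

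Ethanol crosses the placenta and passes into milk, and the exposure window here covers neurogenesis and the early postnatal growth of the cerebellum. Cerebellar granule neurons in rodents are born largely after birth, and Purkinje cells, the output neurons of the cerebellar cortex, are a classical target of early ethanol exposure. Whole-brain RNA mixes all regions, so it also carries whatever small tissue is dissected with the brain, such as pituitary at its base, olfactory bulb at the front and choroid plexus in the ventricles.

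The deposited log2 values of the 4 arrays ran from 4.39 to 15.4, with array medians of 7.01 to 7.05. Neuronal and glial markers were high on every array, with Snap25, a synaptic vesicle fusion protein, at 13.20 to 13.42 and Mbp, a myelin protein, at 11.75 to 11.84. The male label fitted the sex-linked genes, since Xist lay at 5.04 to 5.21 and the Y-linked gene Uty at 9.46 to 9.73. Across probe sets the control arrays had the highest correlation with each other (0.995), and the ethanol arrays had the lowest (0.989). By this measure the ethanol pools were less alike than either was to a control, and values are therefore given array by array.

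With limma and Benjamini-Hochberg adjustment over the 21789 probe sets, 1 probe set passed an adjusted p of 0.05, that of growth hormone (Gh), which was higher in ethanol. That is 0.00459% of those tested, and 0 (0%) were lower at that threshold. An unadjusted p under 0.05 was reached by 1061 probe sets (4.87%), 471 higher (2.16%) and 590 lower (2.71%). This share is not above the one that such a threshold passes where nothing differs. Groups are called non-overlapping here where both ethanol arrays lay on the same side of both controls, which held for 3285 probe sets on the higher side (15.1%) and 4188 on the lower side (19.2%). For gene lists, each gene is represented by its brightest probe set. Over the 19938 genes, the ethanol arrays lay above both controls for 3068 (15.4%) and below both for 3825 (19.2%). An unadjusted p under 0.05 was reached by 445 of those genes on the higher side (2.23%) and 501 on the lower side (2.51%), and the median difference over all genes was -0.005. List counts given hereafter are to be read against these shares.

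The largest differences by far were those of the anterior pituitary hormones, the peptides that the gland at the base of the brain releases into blood. Gh, which drives body growth, had log2 levels of 12.00 and 10.70 in the ethanol arrays and 6.22 and 6.40 in the controls. The ethanol mean was 5.04 ± 0.34 (SE, n = 2 per group) log2 units above the control mean, a 32.9-fold difference, with an adjusted p of 0.0163 by limma. Prolactin (Prl), the lactation hormone, had 10.38 and 8.88 against 5.06 and 5.44, a difference of 4.38 ± 0.41 with an adjusted p of 0.0738 by limma. For both genes the lower ethanol array was far above the higher control. In the deposited values the control levels of Prl lay below the lower quartile of their arrays (5.78 and 5.83), and those of Gh lay below the array medians. The means of both experiments agree per probe set in these values, so such positions within an array need not be the measured levels.

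Cga, the shared alpha subunit of thyrotropin and the gonadotropins, followed with 9.82 and 7.65 in ethanol against 5.70 and 5.89 in control, a difference of 2.94 ± 0.56. The hormone-specific subunits lay much nearer to the controls. Fshb had 6.28 and 5.78 against 5.61 and 5.47 (0.49 ± 0.16), and Lhb had 6.22 and 5.99 against 5.66 and 5.85 (0.35 ± 0.11). Pomc, the precursor of corticotropin, had 6.32 and 6.15 against 5.94 and 5.93 (0.30 ± 0.09), and Tshb differed by 0.25 ± 0.11. All 7 hormone genes were higher in ethanol with no overlap, 6 of them at an unadjusted p under 0.05, and ethanol 1 exceeded ethanol 2 in 7 of 7.

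**Figure D1:**
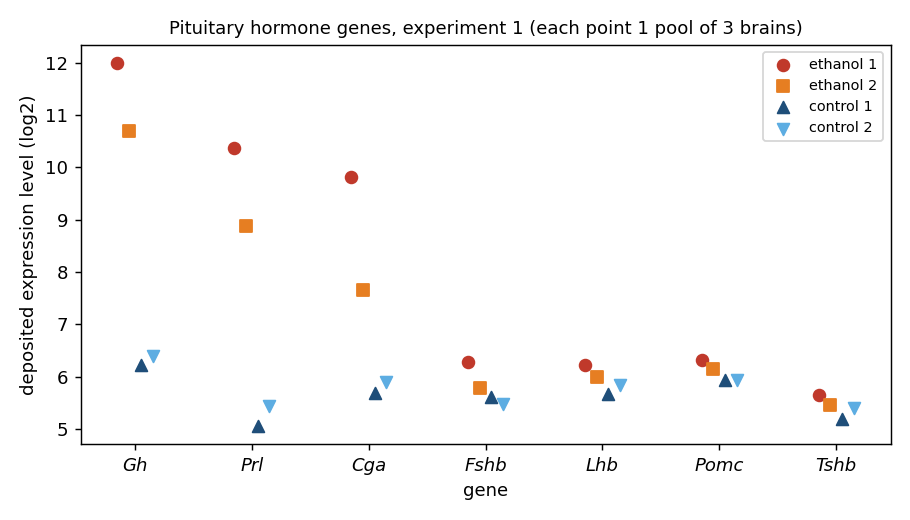
Deposited log2 level (vertical axis) of the 7 pituitary hormone genes (horizontal axis), with 1 point for each pool of 3 brains. Both ethanol pools lie above both controls for each gene, ethanol 1 lies above ethanol 2 for each gene, and Gh, Prl and Cga stand far from the other 4.

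The genes that specify pituitary cells or serve as their receptors did not show the same pattern. Of 10 on that list, 7 had a probe set with 1 symbol, their median difference was 0.01 on the log2 scale, 2 were higher without overlap and 0 reached an unadjusted p of 0.05 by limma. That median was not stable, from -0.03 after quantile normalization to 0.10 over members above the 25th percentile of level. Ethanol 1 lay above both controls for 4 of the 7 and ethanol 2 for 2. Ghrhr, the receptor through which the hypothalamus triggers growth hormone release, had 7.52 and 7.26 in ethanol and 7.18 and 7.40 in control (0.10 ± 0.12), and the groups overlapped. Pax7, a factor of the intermediate lobe, had 6.91 and 6.51 against 6.51 and 6.48 (0.22 ± 0.13). The mean of Gh, Prl and Cga was 10.7 and 9.08 in the ethanol arrays and 5.66 and 5.91 in the controls, a difference of 4.12 with a two-sided exact permutation p of 0.333, the smallest that 2 against 2 arrays can give. In whole-tissue RNA, a different number of cells of a type and a different amount of RNA per cell cannot be told apart, and the part that attached pituitary tissue had in these values was not tested.

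Hypothalamic peptides, made in the region that adjoins the pituitary, lay near the controls. Of 15 measured, 2 were lower and 3 higher without overlap, with a median difference of 0.01. Oxt, encoding oxytocin, had 8.37 and 8.38 against 8.15 and 8.29 (0.15 ± 0.09), and Avp, encoding vasopressin, had 5.70 and 5.68 against 5.74 and 5.84 (-0.10 ± 0.08). Ghrh, the growth hormone releasing peptide, differed by 0.13 ± 0.08.

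In experiment 2 the median difference of the 7 hormones was 0.48, but it came from 1 of 3 ethanol pools. The list medians of those pools relative to their controls were -0.06, 1.29 and -0.02. From low to high, Gh in experiment 2 had 7.63, 7.75 and 13.48 in ethanol and 7.15, 7.51 and 9.48 in control. The highest control thus lay above the ethanol median, and a raised Gh level was not confined to ethanol pools. The Gh difference there was 1.57 ± 1.24, and the test of the difference between experiments gave an unadjusted p of 0.103 and an adjusted p of 0.816 by limma. The call of Gh in experiment 1 was lost under 7 of 13 alternatives. Its adjusted p by limma was 0.0910 after quantile normalization, 0.986 with unnamed probe sets included, 0.387 with the spread of all 10 arrays, 0.966 with a trended robust prior, 0.968 without moderation, 0.937 without control 1 and 0.766 without control 2, with differences of 4.95 to 5.13 log2 units.

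Transcription of Prl and Gh in the gland depends on the factor Pit-1 (Pou1f1). The promoter of Prl is shown because this gene had the largest difference among hormone genes with a RefSeq window. It is the 250 bases before the start of Prl at chr13:27057320-27057569 on the plus strand of GRCm38.p6, from RefSeq, with matches to ATGNATA on either strand in capitals.
Prl: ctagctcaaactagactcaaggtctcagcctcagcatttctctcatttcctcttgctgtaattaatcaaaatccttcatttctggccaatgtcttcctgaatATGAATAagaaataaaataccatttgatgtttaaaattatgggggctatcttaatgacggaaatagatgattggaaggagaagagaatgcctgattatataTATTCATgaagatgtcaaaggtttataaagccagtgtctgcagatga
The matches start 148 and 47 bases before the gene. Of 6 hormone genes with such a window, Prl was the only 1 with a match, while 7.92% of 32851 mouse promoter windows of this length hold one. A match of letters is a description of the sequence and not a bound site.

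Cerebellar granule cell genes were lower in ethanol, and ethanol 2 carried most of that difference. All 12 genes of the list had a difference below zero, 7 had no overlap between groups and the same number reached an unadjusted p under 0.05 by limma, with a median of -0.34. Ethanol 2 lay below both controls for 12 of 12 genes and ethanol 1 for 7 of 12, and the list medians relative to the control mean were -0.124 in ethanol 1 and -0.472 in ethanol 2. No single gene passed the adjusted threshold (adjusted p of 0.951 by limma for Gabra6 and Zic1 alike).

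Gabra6, a GABA-A receptor subunit nearly confined to granule cells, had 10.71 and 10.27 in ethanol against 10.95 and 10.93 in control, a difference of -0.45 ± 0.14. Cbln3, a secreted synaptic organiser of the same cells, had 11.14 and 10.51 against 11.28 and 11.29 (-0.46 ± 0.18). Neurod1, a transcription factor of granule cell differentiation, had 10.63 and 10.29 against 10.88 and 10.85 (-0.41 ± 0.12). In each of these the controls were nearly equal, while ethanol 2 lay well below ethanol 1.

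The Zic zinc finger factors, which mark the granule lineage from its progenitors onward, were lower on both ethanol arrays. Zic1 had 10.41 and 10.23 against 10.69 and 10.65 (-0.35 ± 0.09). Zic5 had 8.90 on each ethanol array against 9.22 and 9.27 (-0.34 ± 0.08), so here the ethanol pools were nearly equal, though a dimmer Zic5 probe set differed by -0.06. Zic2 differed by -0.30 ± 0.11 and Grin2c, an NMDA receptor subunit of mature granule cells, by -0.27 ± 0.12, while Zic4 differed by -0.08 ± 0.10 with overlap, and its dimmer probe set lay on the other side at 0.18. Fat2, an atypical cadherin of granule cell axons, had 9.56 and 8.66 against 9.55 and 9.58, so its difference of -0.46 ± 0.24 came from ethanol 2 alone.

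Purkinje cell genes pointed the same way with smaller values. All 8 measured genes were below zero, 5 without overlap and 2 at an unadjusted p under 0.05, with a median of -0.14. Ppp1r17, a phosphatase inhibitor found in Purkinje cells, had 9.13 and 8.48 against 9.34 and 9.44 (-0.59 ± 0.19). Car8, a carbonic anhydrase-related protein that binds the IP3 receptor, had 11.56 and 11.14 against 11.65 and 11.72 (-0.34 ± 0.14). Pcp2 had 9.17 and 8.64 against 9.25 and 9.19 (-0.32 ± 0.16), and Calb1, a calcium buffer also made by many other neurons, differed by -0.11 ± 0.08. Without ethanol 2 the median difference was -0.12 for the granule list and -0.05 for the Purkinje list. In experiment 2 all 8 Purkinje genes were below zero with a median of -0.10. The ethanol pools there had list medians of -0.053, 0.010 and -0.302, so 1 pool lay much farther from zero than the others. Ppp1r17 differed by -0.33 in experiment 2, again without overlap.

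**Figure D2:**
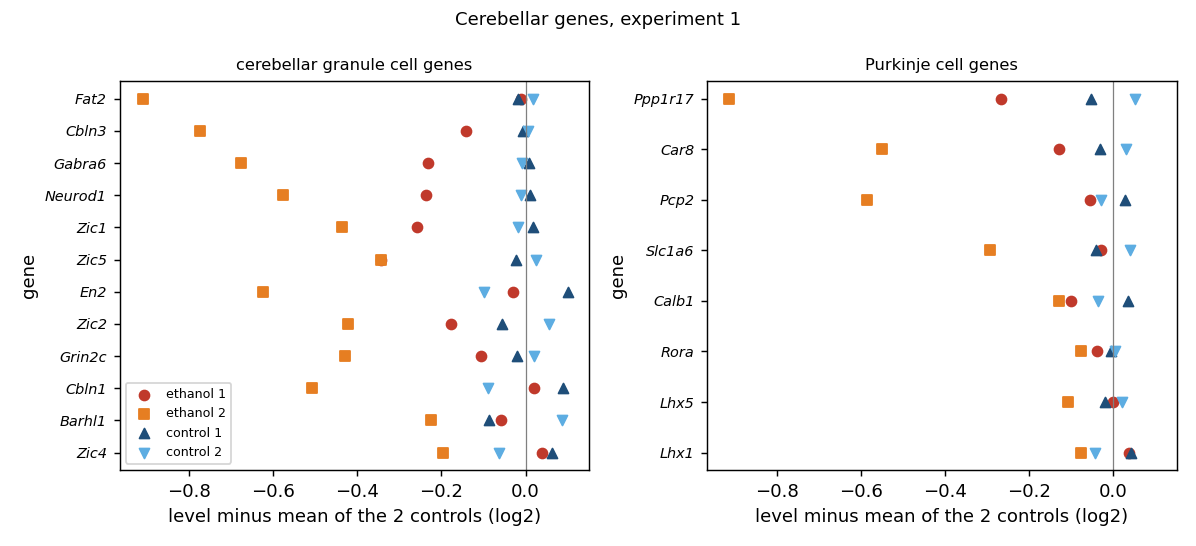
Level minus the mean of the 2 controls on the log2 scale (horizontal axes) for the 12 granule cell genes (left) and 8 Purkinje cell genes (right), 1 point per array. Ethanol 2 is the lowest point for nearly all genes, and ethanol 1 lies between it and the controls for most.

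Chd7, an ATP-dependent chromatin remodeller needed for granule neuron development, was represented by 30 probe sets, which cover the same transcript and are not independent. Of these, 29 were below zero, 20 without overlap and 15 at an unadjusted p under 0.05. The difference ran from -0.58 to 0.03 over the probe sets, with a median of -0.32. The probe set farthest from the controls had 9.13 and 8.87 in ethanol against 9.61 and 9.55 in control (-0.58 ± 0.10). As in the granule list, ethanol 2 was lower than ethanol 1, with medians over the probe sets of -0.482 and -0.117. In experiment 2 the median over the Chd7 probe sets was -0.02 and 18 were below zero. The granule list had a median of -0.10 in experiment 2 with 11 of 12 genes below zero, but its 3 ethanol pools had medians of -0.038, 0.014 and -0.290, so 1 pool set that value. The smallest adjusted p for a difference between experiments among the granule genes was 0.759 by limma.

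Glycinergic genes of the brainstem and spinal cord gave some of the largest differences on the lower side, alike on both ethanol arrays, though neither passed the adjusted threshold. Slc6a5, the glycine transporter of inhibitory terminals, had 9.42 and 9.34 in ethanol against 10.17 and 9.80 in control (-0.60 ± 0.13). Glra1, the adult glycine receptor subunit, had 9.25 and 9.19 against 9.96 and 9.66 (-0.59 ± 0.11). For both genes the controls differed from each other by more than the ethanol arrays did, with control 1 the higher. The Hox genes of the same list, which mark the hindbrain by position, did not share this: 12 genes had differences from -0.14 to 0.12, and the list of 14 had a median of 0.02 (-0.03 after quantile normalization). Hoxb2 had 5.65 and 5.68 against 5.78 and 5.83 (-0.14 ± 0.08). These levels were near or below the lower quartiles of the arrays (5.86 on each ethanol array, 5.78 and 5.83 on the controls), where a fall may be hard to see. In experiment 2 the differences were -0.07 for Slc6a5 and -0.05 for Glra1, and the test of the difference between experiments gave unadjusted p of 0.0308 and 0.0194 with adjusted p of 0.745 and 0.701 by limma.

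Olfactory bulb and newborn neuron genes were also lower, mainly in ethanol 2. Of 18 genes, 16 were below zero and 5 were lower without overlap, each of these 5 at an unadjusted p under 0.05. Doc2g, a mitral cell gene, had 7.47 and 7.05 against 7.81 and 7.52 (-0.40 ± 0.15). Pax6, a factor of bulb interneurons that granule cells of the cerebellum also express, had 8.95 and 8.57 against 9.07 and 9.20 (-0.37 ± 0.13). Th, the dopamine-synthesising enzyme, had 8.29 and 7.92 against 8.48 and 8.34 (-0.31 ± 0.13). Reln, a secreted guidance protein made by mitral cells and cerebellar granule cells, had 9.99 and 9.91 against 10.24 and 10.21 (-0.27 ± 0.08). The list median was -0.11, with -0.036 in ethanol 1 and -0.247 in ethanol 2, and the controls themselves lay at 0.074 and -0.074. Ethanol 1 thus lay between the controls, and ethanol 2 below both. In experiment 2 the list median was 0.01.

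Circadian clock genes were mostly lower, and for several of them the ethanol arrays were alike. The clock is a feedback loop in which Clock and Arntl (Bmal1) switch on genes through E-box sequences, among them the repressors Per, Cry and Nr1d1 and the output factor Dbp. The labels give a light cycle but no hour of collection, so the phase at which pools were taken is not known. Of 19 measured genes, 10 were lower and 4 higher without overlap, with 5 lower at an unadjusted p under 0.05 and a median of -0.12. The list medians were -0.161 in ethanol 1 and -0.091 in ethanol 2, against 0.015 and -0.015 in the controls.

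Dbp, an output factor that activates genes through D-box sequences, had 8.91 and 8.88 in ethanol against 9.46 and 9.33 in control, a difference of -0.50 ± 0.09 with an unadjusted p of 0.000499 and an adjusted p of 0.951 by limma. Nr1d1, the repressor REV-ERB alpha, had 11.28 and 11.22 against 11.47 and 11.58 (-0.28 ± 0.09). Ciart, a repressor of Clock and Arntl, had 9.22 and 9.16 against 9.45 on each control (-0.26 ± 0.08). For these genes the ethanol arrays were nearly equal and lay below both controls.

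Other members of the negative limb were lower as well. Bhlhe41 had 8.46 on each ethanol array against 8.82 and 8.59 (-0.25 ± 0.10), and Bhlhe40 had 8.74 and 9.15 against 9.26 and 9.23 (-0.30 ± 0.13). Nr1d2 had 10.40 and 10.33 against 10.57 and 10.56 (-0.19 ± 0.08). Per2 had 7.99 and 8.02 against 8.19 and 8.15 (-0.17 ± 0.08), while Per1 had 9.60 and 9.99 against 9.88 and 9.78 and overlapped. The positive-limb gene Arntl lay on the other side, with 9.16 and 9.12 against 9.03 on each control (0.11 ± 0.08), as did Cry1 with 7.53 and 7.46 against 7.43 on each control (0.07 ± 0.08). Clock itself had 10.84 and 10.72 against 10.86 and 10.76 and overlapped.

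**Figure D3:**
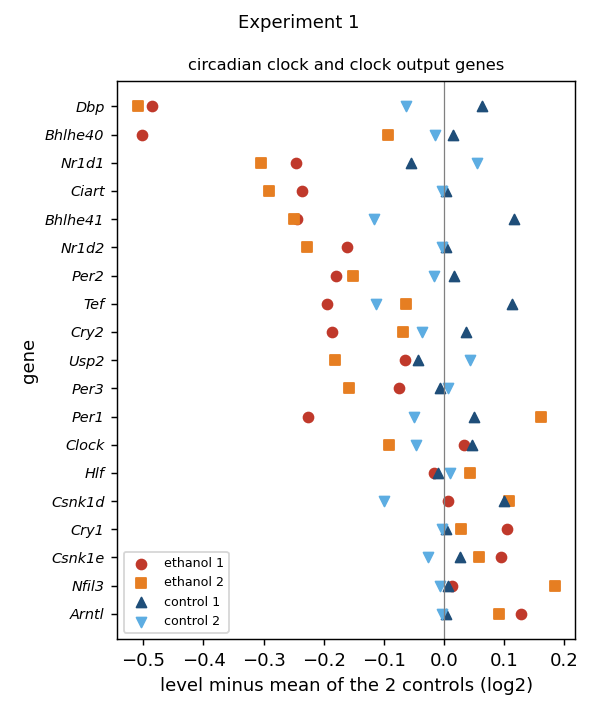
Level minus the mean of the 2 controls on the log2 scale (horizontal axis) for 19 clock and clock output genes (vertical axis), 1 point per array. Both ethanol arrays lie below the controls from Dbp to Per2, and above them by a smaller distance for Arntl and Cry1.

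The clock pattern was not seen in experiment 2, where the list median was 0.002 with 9 genes below zero and 10 above. Dbp differed by -0.01 there, and the difference between experiments had an unadjusted p of 0.0169 and an adjusted p of 0.701 by limma. After quantile normalization of the 4 arrays the list median in experiment 1 was -0.07.

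Promoter windows are shown for clock genes on both sides of the controls, to set the E-box beside the direction. The windows are the 250 bases before the start in RefSeq, GRCm38.p6, each on the minus strand and written in the sense of the gene, at chr3:95882229-95882478 for Ciart and chr10:85185055-85185304 for Cry1, with CACGTG in capitals. This motif reads the same on both strands.
Ciart: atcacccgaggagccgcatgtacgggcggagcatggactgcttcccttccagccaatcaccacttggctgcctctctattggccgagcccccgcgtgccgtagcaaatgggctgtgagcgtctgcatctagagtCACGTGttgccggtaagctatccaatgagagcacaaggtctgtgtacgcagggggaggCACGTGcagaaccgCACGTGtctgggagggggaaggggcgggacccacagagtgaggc
Cry1: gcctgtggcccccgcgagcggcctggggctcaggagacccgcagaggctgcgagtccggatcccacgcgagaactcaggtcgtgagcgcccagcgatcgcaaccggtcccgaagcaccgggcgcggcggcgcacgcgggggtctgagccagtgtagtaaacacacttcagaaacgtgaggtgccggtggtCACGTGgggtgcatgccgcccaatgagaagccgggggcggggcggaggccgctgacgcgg
For Per3, at chr4:151044666-151044915 on the minus strand, the capitals mark the D-box TTATGTAA, searched on both strands.
Per3: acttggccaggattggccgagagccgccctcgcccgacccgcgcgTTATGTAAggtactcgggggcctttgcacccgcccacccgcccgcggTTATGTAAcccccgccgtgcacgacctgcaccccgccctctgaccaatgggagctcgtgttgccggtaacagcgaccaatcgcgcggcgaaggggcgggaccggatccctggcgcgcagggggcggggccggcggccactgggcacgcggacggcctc
Ciart, lower in ethanol, has 3 E-boxes, which start 116, 58 and 44 bases before the gene, and Cry1, slightly higher, has 1 that starts 60 bases before it. Of 16 clock genes with a window, 5 held an E-box in at least 1 window, while 6.02% of 32851 windows of this length hold one. These were 2 of 8 genes that were lower without overlap (Bhlhe41 and Ciart) and 3 of 8 others (Cry1, Per1 and Tef). The D-box was found in 1 of the 16, Per3, at 205 and 158 bases before the start, while 0.819% of all windows hold one. For both motifs genes were counted, and some of them have several windows. The gene counts and the window shares are therefore not like for like. Per3 itself had 7.81 and 7.72 in ethanol against 7.87 and 7.89 in control (-0.12 ± 0.08).

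Genes of insulin, PI3K, Akt and mTOR signalling were lower by small amounts, with 10 of 24 lower and 0 higher without overlap and 3 at an unadjusted p under 0.05. Foxo3, a transcription factor that Akt inhibits, had 8.58 and 8.38 against 8.73 and 8.78 (-0.27 ± 0.10). Pik3r2, a regulatory subunit of PI3 kinase, had 8.45 and 8.59 against 8.74 and 8.78 (-0.24 ± 0.09). Rictor, a scaffold of mTOR complex 2, had 9.81 and 9.78 against 10.05 and 9.96 (-0.21 ± 0.08). The ligand gene Igf1 overlapped (-0.02 ± 0.10), as did Akt1 (-0.08 ± 0.09). The list median was -0.07, and -0.02 after quantile normalization or without control 1, so its distance from zero was not stable.

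The TET enzymes, which oxidise 5-methylcytosine and so start its removal, were lower on both ethanol arrays at their brightest probe sets. Tet3 had 7.97 and 8.02 against 8.25 and 8.24 (-0.25 ± 0.08), and Tet1 had 9.64 and 9.55 against 9.91 and 9.78 (-0.25 ± 0.09). Tet2 had 8.88 and 8.92 against 9.09 and 9.06 (-0.17 ± 0.08). The probe sets of Tet3 disagreed, since its other one overlapped with a difference of 0.02. The methyltransferase Dnmt1 did not share this, with 9.20 and 9.30 against 9.36 and 9.19 (-0.02 ± 0.09), and Dnmt3a overlapped as well (-0.11 ± 0.10). Of 11 DNA methylation genes, 4 were lower without overlap and 2 reached an unadjusted p of 0.05, with a median of -0.08. The median of the 3 TET genes was -0.25 as deposited, -0.19 after quantile normalization and -0.26 after median centring. In experiment 2 Tet3 differed by 0.05, with an adjusted p of 0.665 by limma for the difference between experiments.

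Activity-regulated genes separated the ethanol pools from each other rather than from the controls. Immediate early genes are transcribed within minutes of strong neuronal firing. Nr4a1, an orphan nuclear receptor, had 8.86 in ethanol 1 and 10.69 in ethanol 2, with the controls between at 9.54 and 9.83. Arc, a regulator of synaptic AMPA receptors, had 8.76 and 10.22 against 8.94 and 9.24 (0.40 ± 0.39). Dusp1, a phosphatase that switches off MAP kinases, had 9.60 and 10.96 against 10.04 and 10.27. Ethanol 1 was thus the lowest array and ethanol 2 the highest for each of these.

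Over the 23 immediate early genes measured, ethanol 2 lay above both controls in 20 and ethanol 1 below both in 15. The list medians were -0.117 in ethanol 1 and 0.407 in ethanol 2, while the mean of the groups differed by a median of 0.12 and only Nptx2 was higher without overlap. The sign of the list in experiment 1 therefore depended on the pool, with 0.41 without ethanol 1 and -0.12 without ethanol 2. Heat shock and unfolded protein response genes ordered the ethanol pools in the same way, with ethanol 2 above ethanol 1 in 15 of 15 and 0 without overlap. Hspa1a, the inducible cytosolic chaperone, had 7.69 and 8.17 against 7.77 and 7.62. Dnajb1, its co-chaperone, had 8.27 and 8.68 against 8.30 and 8.29. Ethanol 2 was also the array with the lower cerebellar levels, and whether these patterns are related was not tested.

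**Figure D4:**
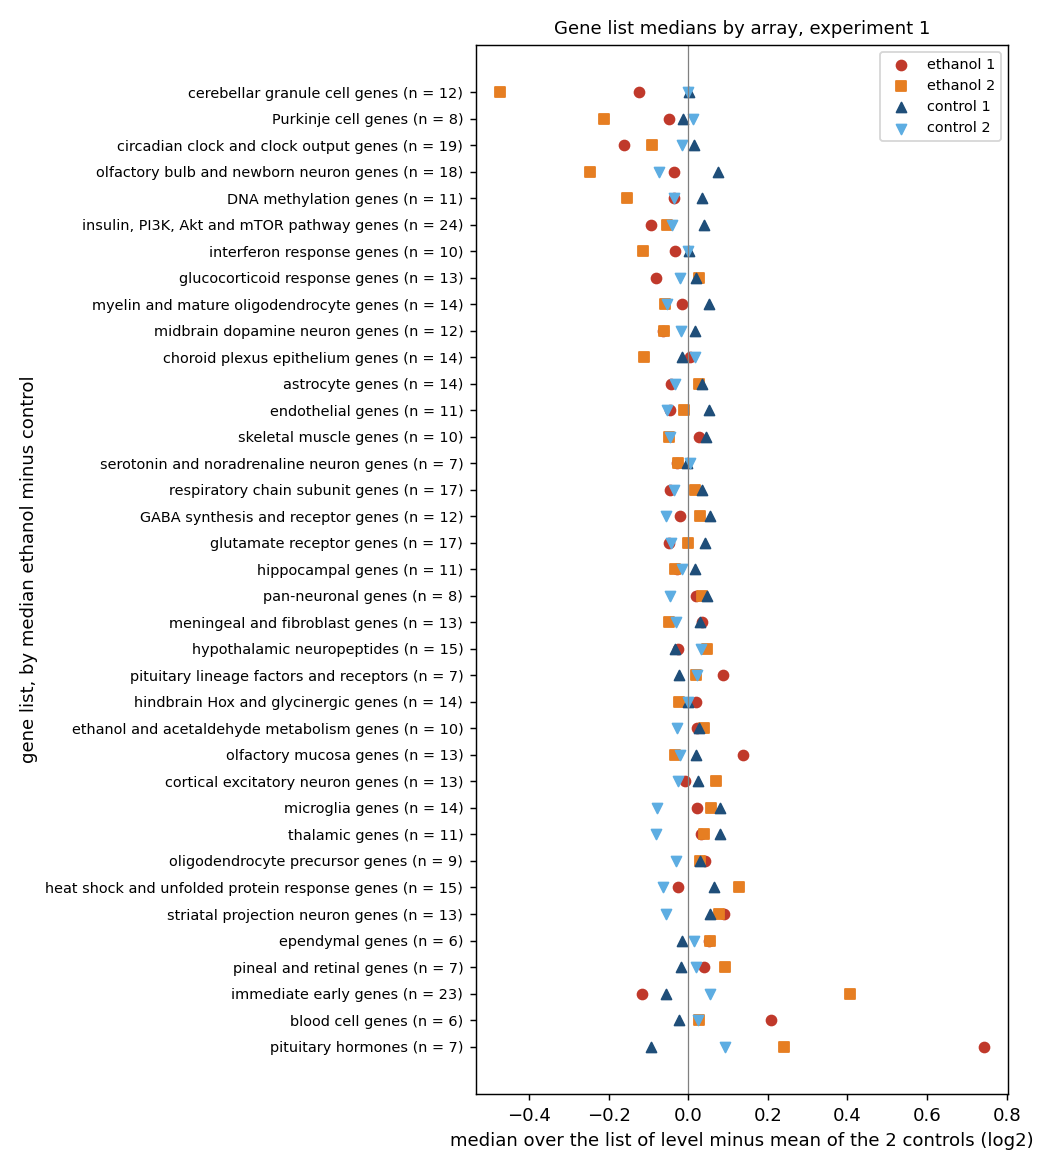
Median over a gene list of the level minus the mean of the 2 controls on the log2 scale (horizontal axis), 1 point per array. Gene lists (vertical axis, with the number of measured genes) are in the order of their ethanol minus control median. Reference genes and male and female specific genes, kept as checks, are not drawn. The ethanol pools lie apart from both controls on the same side for the pituitary hormones, the cerebellar lists and the clock genes, and on opposite sides for the immediate early genes. Separation on the same side is not particular to those lists. It is also seen, by smaller distances in most, for blood cell, striatal, ependymal, pineal, midbrain dopamine, hippocampal, serotonin, PI3K pathway, DNA methylation and interferon genes.

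The remaining lists had few genes at an unadjusted p under 0.05, though some had several without overlap. Ependymal genes had 3 higher and 1 lower of 6 without overlap and 0 at an unadjusted p under 0.05. Choroid plexus genes had 4 lower and 1 higher of 14 without overlap, with Kcnj13, a potassium channel of that epithelium, at 10.31 and 10.27 against 10.47 and 10.49 (-0.19 ± 0.08) and Ttr, its thyroxine carrier, at 12.90 and 12.97 against 13.01 and 12.93. The choroid median of -0.03 compares with -0.22 in experiment 2, where 14 of 14 genes were below zero. Striatal projection neuron genes had 6 of 13 higher without overlap and 0 at an unadjusted p under 0.05, led by the dopamine receptor gene Drd1 with 9.10 and 9.31 against 8.96 and 9.01 (0.22 ± 0.10). Of 10 interferon response genes, 3 were lower without overlap, among them Ifit1 whose higher ethanol array had 6.72 against 6.89 and 6.99 in control (-0.28 ± 0.09). Endothelial genes lay on both sides, with 3 lower and 1 higher of 11 without overlap and a median of -0.02, and the angiopoietin receptor gene Tek, the farthest from the controls, had 7.70 on each ethanol array against 7.86 and 8.08 (-0.27 ± 0.10). Midbrain dopamine neuron genes had 4 of 12 lower without overlap, including Th, which the bulb list shares, and Ret with 8.38 and 8.07 against 8.50 and 8.54 (-0.30 ± 0.11), while the dopamine transporter gene Slc6a3 overlapped (0.06 ± 0.09). Blood cell genes had 6 of 6 above zero and a median of 0.12, with 1 higher without overlap and 0 at an unadjusted p under 0.05. Their list medians were 0.207 and 0.028 in ethanol against -0.024 and 0.024 in control. Microglia genes had 0 of 14 without overlap and a median of 0.04. Enzymes of ethanol and acetaldehyde metabolism had a median of 0.02, with Adh1 at 5.94 and 5.97 against 5.83 and 5.79 (0.14 ± 0.08) and Aldh2 overlapping. The lists kept as checks lay apart from both controls as well. Male and female specific genes had list medians of -0.099 and -0.109 against -0.037 and 0.037, with 3 of 4 lower without overlap. Their median difference was -0.13, beside -0.12 for the clock genes. Reference genes had 0.054 and 0.077 against 0.024 and -0.024, with 2 lower and 2 higher of 8 without overlap. Neither list held a gene at an unadjusted p under 0.05.

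MicroRNA genes of the imprinted region between Dlk1 and Dio3 on chromosome 12 were examined after the values of Mir376b had been seen. The region is transcribed from the maternal chromosome as long precursors that hold many microRNAs, most of them expressed in neurons. The array probe sets read the gene's transcript and not the mature microRNA. The mature 3p forms of the 7 genes that were lower at an unadjusted p under 0.05 are shown to identify them, from RefSeq, GRCm38.p6, plus strand of chromosome 12. Capitals mark the seed, bases 2 to 8, which pairs with target messages.
mmu-miR-376b-3p: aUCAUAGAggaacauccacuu
mmu-miR-494-3p: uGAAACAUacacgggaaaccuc
mmu-miR-380-3p: uAUGUAGUaugguccacaucuu
mmu-miR-665-3p: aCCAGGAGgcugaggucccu
mmu-miR-377-3p: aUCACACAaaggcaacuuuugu
mmu-miR-543-3p: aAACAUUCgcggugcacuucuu
mmu-miR-323-3p: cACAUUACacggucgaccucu
Each of these seeds is different from the others, and none was found in another mature sequence of the 40 genes. Of the 7, mmu-miR-665-3p has the lowest coordinate, chr12:109586368-109586387, and mmu-miR-376b-3p lies at chr12:109723508-109723528.

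Mir376b had 7.79 and 7.63 in ethanol against 8.30 and 8.23 in control, a difference of -0.55 ± 0.09 with an adjusted p of 0.951 by limma. Mir494 had 7.51 and 7.60 against 7.86 on the lower control (-0.37 ± 0.09), and Mir380 had 7.35 and 7.54 against 7.64 and 7.86 (-0.31 ± 0.11). Both ethanol arrays lay below both controls for each. Mir665 differed by -0.27 ± 0.11, Mir377 by -0.26 ± 0.11, Mir543 by -0.25 ± 0.09 and Mir323 by -0.22 ± 0.08. Mir369 went the other way, with 7.62 and 7.91 against 7.32 and 7.46 (0.37 ± 0.11), so the region did not shift as a block.

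Of the 40 microRNA genes in the region, 31 were below zero, 14 were lower and 3 higher without overlap, and the median difference was -0.0859, with -0.0684 in ethanol 1 and -0.101 in ethanol 2. The other 260 microRNA genes on the array had a median of 0.0552, with 20 lower and 68 higher without overlap. In experiment 2 the 40 genes lay on the opposite side. Their median there was 0.228, with 39 of 40 above zero and 17 higher without overlap, and the 3 ethanol pools had medians of 0.219, 0.188 and 0.212. The other 260 also lay above zero there, with a median of 0.0751, 209 above zero and 52 higher without overlap, so that direction in experiment 2 was not confined to the region. In 7 of the 40 genes the groups failed to overlap in both experiments, lower in experiment 1 and higher in experiment 2. The same held for 4 of the other 260. Over all 19938 genes, 8963 were above zero in experiment 2, with a median of -0.0114. The shares of all genes without overlap in experiment 2, or in both experiments, were not computed. How unusual those non-overlap counts are is therefore not known. The difference between experiments reached an unadjusted p of 0.05 for 20 of the 40, against 6.57% of all probe sets, and its smallest adjusted p among them was 0.665 by limma. Under quantile normalization 29 of 40 were below zero in experiment 1, with a median of -0.08. Precursors of 1 transcript share their source, so these genes are not independent measurements.

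**Figure D5:**
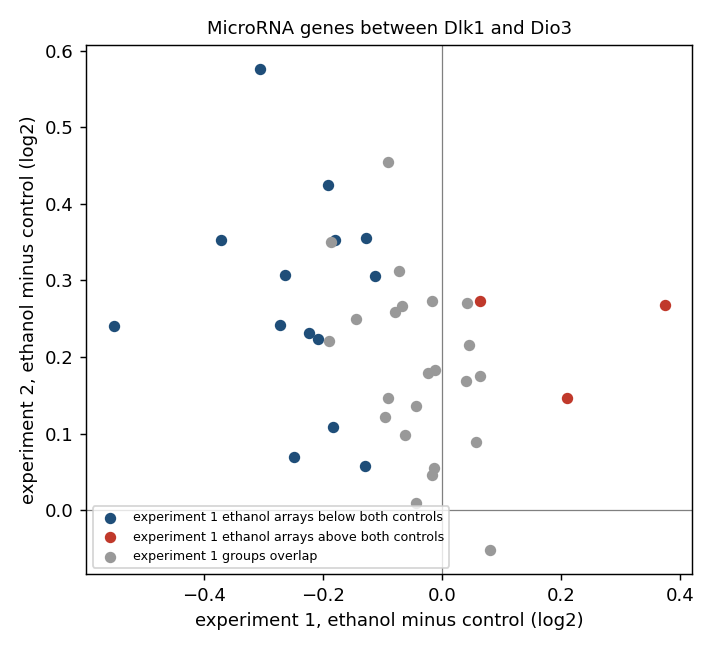
Ethanol minus control difference on the log2 scale in experiment 1 (horizontal axis) and experiment 2 (vertical axis) for the 40 microRNA genes between Dlk1 and Dio3, 1 point per gene, coloured by whether the experiment 1 arrays overlapped. Most points lie left of zero and 39 lie above zero, with Mir376b at the far left and Mir369 at the far right.

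Among other genes with the smallest unadjusted p, each with an adjusted p of 0.951 by limma, Usp17ld stood highest. This deubiquitinase gene belongs to a family of near-identical copies, whose signals a probe set may not separate. It had 6.96 and 7.34 against 6.35 and 6.39 (0.78 ± 0.13). Tnnc1, the calcium-binding troponin of slow muscle and heart, had 8.50 and 8.43 against 8.13 and 8.02 (0.39 ± 0.09). Mrgprx2 (0.47 ± 0.09), Cyp3a25 (0.37 ± 0.08), Vpreb1 (0.37 ± 0.09) and Colec10 (0.39 ± 0.10) were higher at levels under 6.7, in the dimmer part of the array. Trmt112, a methyltransferase partner, was higher on 1 probe set (0.34 ± 0.09) and lower on its other 2 (-0.11 on each), so its probe sets disagreed. By size, Lce1i had 6.82 and 7.49 against 6.57 and 6.51 (0.61 ± 0.19), and the spliceosomal RNA gene Rnu6 had 7.33 and 7.62 against 7.28 and 6.65 (0.51 ± 0.20). In experiment 2 the differences were -0.01 for Tnnc1, -0.26 for that higher Trmt112 probe set and -0.14 for Rnu6. The other genes named here were above zero there, from 0.04 for Mrgprx2 to 0.23 for Vpreb1.

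On the lower side, the cyclic nucleotide phosphodiesterase gene Pde4d had 7.16 and 6.99 against 7.57 and 7.52 on 1 probe set (-0.47 ± 0.09), while its other 2 overlapped, with differences of -0.11 and 0.03. Pde3b, a related phosphodiesterase that insulin activates, had 8.46 and 8.39 against 8.82 and 8.79 (-0.38 ± 0.08). Mbd6, a subunit of a deubiquitinating complex at chromatin, had 8.42 and 8.34 against 8.77 and 8.88 (-0.45 ± 0.09). The zinc finger gene Zfp931 (-0.45 ± 0.09) and Klhl4 (-0.40 ± 0.08) were lower by similar amounts. In these 5 genes each ethanol array lay below each control by more than the arrays of a group differed, as genes chosen for a small p tend to. Their differences in experiment 2 were 0.30 for that Pde4d probe set, -0.01 for Pde3b, 0.03 for Mbd6, -0.14 for Zfp931 and -0.21 for Klhl4. Only Klhl4 was lower without overlap there, and Pde4d was higher without overlap.

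The direction of a difference followed the level of the probe set, and this bears on every list above. The lower quartile of the arrays was 5.86 on each ethanol array against 5.78 and 5.83 on the controls, and the upper quartile was 8.94 and 8.98 against 9.05 and 8.98. These quartiles differed by 0.0569 and -0.0533, each with a two-sided exact permutation p of 0.333. In the dimmest level quartile of probe sets 73.0% were higher in ethanol, and the shares in the next quartiles were 57.8%, 29.3% and 32.8%. The granule cell and clock genes named above lie mostly in the brighter quartiles. After quantile normalization the shares were 51.1%, 45.2%, 45.5% and 49.1%, and the list medians were -0.28 for granule cells, -0.13 for Purkinje cells, -0.12 for olfactory bulb and 0.44 for pituitary hormones. The part of this level dependence in the smaller differences was not tested gene by gene.

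Over the whole array the difference between experiments had 0 probe sets (0%) past an adjusted p of 0.05 by limma, with 1432 (6.57%) at an unadjusted p under 0.05. The smallest adjusted p was 0.269, for 2310067E19Rik, which had 6.55 and 6.45 in ethanol against 6.77 and 6.83 in control in experiment 1 (-0.30 ± 0.09) and a difference of 0.45 in experiment 2. The next were 9530091C08Rik (-0.40 in experiment 1 and 0.40 in experiment 2), 1 of the 3 probe sets of Pde4d (-0.47 and 0.30) and 1 of the 2 probe sets of Kansl1 (-0.15 and 0.44). Each of these had an adjusted p of 0.443 by limma. In all 4 the difference was below zero in experiment 1 and above zero in experiment 2. Across the 19938 genes the differences of the experiments had a Pearson correlation of 0.252, which is across genes that are not independent replicates.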

How the data were processed

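Total RNA of each pool (200 ng) was labelled for Affymetrix whole-transcript arrays, per the labels. The authors deposited log2 expression levels per probe set. Partek 6.6 appears in the submitters' processing notes, and no source used here gives the background correction, normalization or batch step. In the deposited log2 values the means of both experiments agree per probe set to within 5.83e-05, so levels cannot be compared between experiments.

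Arrays were grouped by title and probe sets named from the platform annotation (23410 listed, of which 1621 with several symbols were left out). limma 3.58.1 in R 4.3.3 (lmFit, eBayes) was fitted to the 4 arrays (2 residual degrees of freedom, prior 5.63) with Benjamini-Hochberg adjustment, and to all 10 arrays for the difference between experiments. Signed values are ethanol minus control. The median standard error was 0.0899, which the number of arrays limits. The procedure was tested on simulated data.

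The members, gene lists (39 lists, 466 of 512 genes measured) and tests were chosen with earlier results of these data known. Named genes were the 10 smallest p per direction at a minimum fold, the 6 largest non-overlapping differences per direction, 2 leading and up to 4 further members of lists described, and the 4 genes with the smallest p between experiments. The first 2 rules left out predicted genes, chemosensory receptors and small nucleolar RNAs. Other list members were named after their values were seen. Alternatives were other normalizations, level filters, probe set choices and variance estimates, a replicate block and each array left out. Figures were drawn with matplotlib 3.10.9.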

Additional observations from a re-analysis of the deposited data

Results flagged for a closer look

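The 4 probe sets with the smallest p by limma for the difference between experiments were flagged. That each had an unadjusted p under 0.05 follows from this choice, and 1432 probe sets (6.57%) did so over the whole array. Experiment 2 was higher by 0.77 log2 units for Pde4d, 0.76 for 2310067E19Rik, 0.79 for 9530091C08Rik and 0.59 for Kansl1. The adjusted p by limma were 0.443, 0.269, 0.443 and 0.443. Pde4d and Kansl1 are given by 1 of their 3 and 2 probe sets. The median experiment 2 difference over all probe sets of the gene was 0.03 for Pde4d and 0.21 for Kansl1, each with 1 probe set below zero.

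For 9 sets of genes the median of every ethanol pool of experiment 1 lay on the opposite side of the control mean from that of every ethanol pool of experiment 2, and this difference between medians was not tested. The experiment 2 median was higher than that of experiment 1 by 0.31 for the microRNA genes between Dlk1 and Dio3 and by 0.16 for male and female specific genes. The experiment 2 minus experiment 1 values were -0.13 for ependymal, striatal projection neuron and thalamic genes alike, -0.15 for microglia genes, -0.0993 for reference genes, -0.0937 for ethanol and acetaldehyde metabolism genes and -0.0738 for oligodendrocyte precursor genes. In experiment 1 both ethanol medians lay between the controls for microglia (0.021 and 0.057, controls 0.079 and -0.079) and thalamic genes (0.031 and 0.039, controls 0.080 and -0.080). For the oligodendrocyte precursor and ethanol metabolism lists 1 ethanol median lay between them. The side of the control mean is therefore no sign that the groups separated.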

How the results depend on the processing

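The number of genes past an adjusted p of 0.05 (1 as reported) was 0 after quantile normalization, with all probe sets, with the spread of 10 arrays, with a trended robust prior and without moderation, and 2 after median centring or above the 25th percentile or the median level. It ran from 0 to 616 without 1 array (616 without ethanol 1, 164 without ethanol 2, 0 without either control), where the lone array is assumed to vary like the others. The replicate block gave 2, and an adjusted p of 7.25e-05 for Gh by limma. Arrays share only a number (correlation of deviations -0.0521 over 2 pairs). At an unadjusted p under 0.05, 471 higher became 247 and 48 under the level filters, 877 with the spread of 10 arrays and 171 to 1366 without 1 array. The 590 lower became 1074 and 172 to 1248. The median of pituitary hormones was 2.94 over members above the 25th percentile. Quantile normalization gave -0.0302 for hindbrain genes (-0.31 above the 25th percentile), -0.0670 for clock genes and -0.0242 for PI3K pathway genes. Without 1 array the medians ran from -0.47 to -0.12 for granule cell, -0.21 to -0.0477 for Purkinje cell, -0.25 to -0.0289 for olfactory bulb, -0.0226 to 0.0301 for hindbrain, -0.0939 to -0.0247 for PI3K pathway and -0.15 to -0.0356 for DNA methylation genes. The difference between experiments called 94 genes without ethanol 1, and at an unadjusted p its count ran from 1382 to 2692 without 1 array. Among named genes 555 values kept direction and side of the threshold, 7 (all Gh) lost the call, 35 gained it and 0 reversed.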
